A study of Xenopus tropicalis with 45 samples.

Results

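The genes described here encode the core of the Notch pathway in *X. tropicalis* and the Hes and Hey repressors that act below it. They were chosen by name alone, as every gene of the RNA-seq tables whose identifier begins with *hes*, *hey*, *dll*, *jag* or *notch* and a number, or with *dlc*, *lfng*, *mfng* or *rfng*. The rule found 31 of 28850 genes. These are 5 ligand genes (*dll1*, *dlc*, *dll4*, *jag1* and *jag2*), 4 receptor genes (*notch1* to *notch4*), 2 fringe genes (*lfng* and *rfng*), 8 *hes* genes outside the *hes5* group, 9 *hes5* genes and 2 *hey* genes. The last gene, *dlc1*, was matched only by its first letters: it encodes no Notch component, and it is counted among the members below, in the peak counts as well.

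Notch signaling passes between touching cells. A Delta or Jagged ligand on the surface of a cell binds a Notch receptor on its neighbor, the receptor is cut by proteases, and its freed intracellular part enters the nucleus and joins the DNA-binding protein Rbpj to switch on target genes, among them members of the *hes* and *hey* families, which encode basic helix-loop-helix repressors. In the *Xenopus* ectoderm, this exchange of signals is known for spacing primary neurons in the neural plate and multiciliated cells and ionocytes in the epidermis, and in the mesoderm for setting the borders of somites.

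RNA was measured by RNA-seq in 16 libraries of explants from wild-type embryos at early gastrula (st10.5). Animal cap (AC) is presumptive ectoderm and vegetal mass (VG) is presumptive endoderm. In the first experiment AC and VG explants came from embryos kept in 100 nM Trichostatin A (TSA), a pan-HDAC inhibitor, or in its solvent DMSO, and in the second from embryos kept in 10 mM valproic acid (VPA), a Class I HDAC inhibitor, or in water. Each of the 8 groups has 2 libraries, the embryos were immersed in the inhibitor or solvent from the 4-cell stage, and the explants were cut at late blastula. Binding and acetylation were read from 13 ChIP-seq peak lists. Whole embryos without treatment were profiled for Hdac1 (st8, st9 and st10.5), Hdac2 (st9 and st10.5) and Sox3 (st9), and embryos with TSA or DMSO for Hdac1 (st9 and st10.5). The remaining lists are those of pan-H3Kac (acetylated lysines of histone H3) at st10.5 in untreated whole embryos and in AC and VG explants with DMSO.

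The libraries hold 16892304 to 54350327 counts. Replicate 2 of AC with TSA and replicate 2 of AC with DMSO stand apart, since ribosomal RNA genes took 39.4% and 35.0% of their counts, against 0.730% to 4.38% in the other 14. In the first experiment the length correction (gene length less the effective length used for TPM) also differed by tissue. It was 100 bp in each AC library and 199 to 202 bp in VG libraries, so tissue and this setting cannot be told apart there. In all libraries of the second experiment the correction was 257 to 265 bp. Tissue labels were checked with 8 ectoderm, 10 endoderm and 7 mesoderm markers. The summed ectoderm level was 871 to 3863 TPM in AC and 531 to 1327 TPM in VG, with overlap between an AC library with TSA and VG libraries of the second experiment. Most of the sum in VG with water came from 1 marker, *krt18.1*, at 1170 and 1165 TPM, against 769 and 899 TPM in AC with water. In each solvent control, 7 of the 8 ectoderm markers were called higher in AC (calls are defined below). The summed endoderm level was 56.4 to 536 TPM in AC and 5982 to 8732 TPM in VG. TPM is a transcript level scaled to the library and corrected for gene length. Ribosomal RNA genes are part of that scale, which lowers the TPM of other genes in the 2 libraries rich in them. Their TMM scaling factors in edgeR were 0.734 (TSA) and 0.711 (DMSO), against 1.136 and 1.062 in replicate 1. Overlap of groups was judged on TPM without this scaling. A gene is called below when its edgeR adjusted p was under 0.05 and its fold change over 2. In bulk explants, fewer cells that express a gene and less RNA in each cell cannot be told apart.

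The members covered a wide range of levels. Every library held at least 1 TPM of 15 of the 31, among them *notch1*, *notch3*, *lfng*, *rfng*, *dll1*, *hes1*, *hes4*, *hes7.1* and *dlc1*, and *notch4* stayed under 1 TPM in all 16. The highest level of any member was that of *hes4*, known in *Xenopus* from the neural plate border, at 409 TPM in replicate 1 of AC with DMSO. *hes5.2* and *hes5.4* had too few counts to be tested in either experiment and *hey2* in the second, which leaves 29 members tested with TSA and 28 with VPA. The counting program divides reads that match several genes among them, which can leave fractional counts. Such counts occurred for *hes5.3*, *hes5.5*, *hes5.7* and *hes5.9*, so that the division of reads among these genes is uncertain. The counts of *hes6.1*, *hes6.2*, *hes7.1* and *hes7.2* were whole numbers in every library.

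The first question was which members changed when HDAC activity was inhibited in AC. With TSA, 3 ligand genes and a *hes* gene fell and a ligand gene and a *hes* gene rose. The called members were *dll1*, *dlc*, *jag1* and *hes7.2* (lower) and *jag2* and *hes7.1* (higher), which is 4 lower and 2 higher of 29 tested, where 1.00% of all 15232 tested genes were called lower and 1.29% higher. The median log2 fold change was 0.48 over the 29 members and 0.0036 over all tested genes.

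*dll1*, the Delta ligand gene best known for lateral inhibition, lay at 2.92 and 2.31 TPM in AC with TSA, against 59.9 and 45.2 TPM in AC with DMSO. Both TSA libraries were far below both DMSO libraries, and the log2 fold change was -4.42 ± 0.62 (SE, edgeR adjusted p = 0.023). For *dlc*, the second Delta ligand gene, AC had 4.02 and 1.5 TPM with TSA, against 61.6 and 22.7 TPM with DMSO. Here too the groups did not overlap, although replicate 2 was the lower library of each pair (log2 fold change -4.04 ± 0.73, edgeR adjusted p = 0.044). *jag1*, a Jagged ligand gene, had 2.36 and 2.7 TPM with TSA, against 12.2 and 8.14 TPM with DMSO. It thus fell in AC by 2.06 ± 0.29 on the log2 scale (edgeR adjusted p = 0.023). The other Jagged gene, *jag2*, went the opposite way, with 3.89 and 2.75 TPM in TSA libraries, against 0.58 and 0.51 TPM in DMSO libraries. It was low in both DMSO libraries and rose by 2.5 ± 0.45 on the log2 scale (edgeR adjusted p = 0.044). *dll4*, a Delta gene known from vessel sprouting in the mouse, was barely present, at 1.72 and 0.43 TPM with TSA and 0.09 and 0.12 TPM with DMSO, and was not called (log2 fold change 3.13 ± 1.27, edgeR adjusted p = 0.35).

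The neighbors *hes7.1* and *hes7.2*, which lie on chromosome 3 at 144639169 to 144641758 and 144598168 to 144601249 (assembly v10.0), moved in opposite directions. *hes7.1* reached 269 and 178 TPM in AC with TSA, against 35.1 and 22.6 TPM with DMSO. Its rise had the lowest adjusted p among the members in this comparison, with a log2 fold change of 2.86 ± 0.29 (edgeR adjusted p = 0.0093). *hes7.2* had 7.35 and 4.26 TPM with TSA, against 40.2 and 19.2 TPM with DMSO. Both TSA libraries were lower than both DMSO libraries, and it fell by 2.44 ± 0.41 on the log2 scale (edgeR adjusted p = 0.036).

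Members near the threshold in the same comparison were *hes2* and *hes6.1*. *hes2* had 46.3 and 12.6 TPM with TSA, against 3.15 and 0.67 TPM with DMSO (log2 fold change 3.89 ± 0.76, edgeR adjusted p = 0.055). *hes6.1*, whose family member Hes6 is known in *Xenopus* for promoting neuron formation, had 26.1 and 13.3 TPM with TSA, against 50.8 and 45.1 TPM with DMSO (log2 fold change -1.42 ± 0.28, edgeR adjusted p = 0.055). Neither passed the test, though the groups of neither overlapped. *hes4* had 156 and 88.9 TPM with TSA, against 409 and 180 TPM with DMSO, without overlap, and was not called. DESeq2 called *hes4* lower, and the paper lists it among genes lowered in AC. The receptors and fringe genes showed no call. *notch1* had 37.6 and 55.2 TPM with TSA, against 38.6 and 68.9 TPM with DMSO, with overlapping groups, and *notch3* and *rfng* also overlapped. The groups of *notch2* did not overlap, at 4.13 and 5.6 TPM with TSA, against 2.25 and 2.87 TPM with DMSO, nor did those of *lfng*, at 58.3 and 94.7 TPM against 122 and 119 TPM, or of *notch4*, at 0.12 and 0.14 TPM against 0.07 and 0.06 TPM. In this comparison the groups of 21 of 29 tested members did not overlap, where those of 30.9% of all tested genes did not. *hey2* had 1.58 and 1.32 TPM with TSA, against 0.11 and 0.03 TPM with DMSO. That is 73 counts against 3 counts, a ratio of 23.4 (95% exact interval of 7.69 to 116, counting error only), and it was not called (edgeR adjusted p = 0.10).

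**Figure D1:**
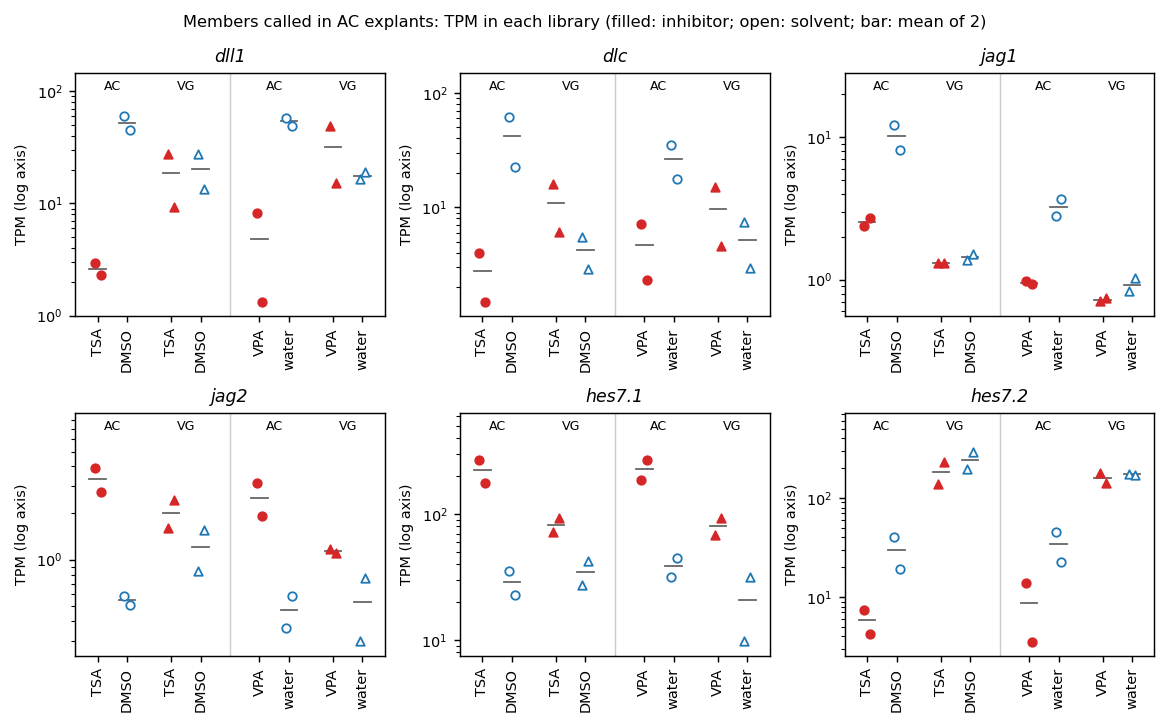
TPM (log axis) of the 6 members called in AC explants, in each of the 16 libraries. Circles are AC and triangles VG, filled red symbols are inhibitor and open blue symbols solvent, and bars are means of 2 libraries. In AC, *dll1*, *dlc*, *jag1* and *hes7.2* lie lower with either inhibitor than with its solvent and *jag2* and *hes7.1* lie higher.

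These calls rest on few libraries. The count of 6 fell to 0 without replicate 1 or without replicate 2 of AC with DMSO, and to 1 without replicate 1 or replicate 2 of AC with TSA, which was *hes7.1* both times. It was also 0 when both AC libraries rich in ribosomal RNA were left out, with *dll1* at -4.49 and *hes7.1* at 2.81 on the log2 scale. In each of these fits the 6 log2 fold changes kept their sign.

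VPA was the second inhibitor, with its own control libraries. In AC 1 member was called lower (*jag1*) and 0 higher, of 28 tested, where 0.745% of all 15166 tested genes were called lower and 1.36% higher. *jag1* had 0.98 and 0.93 TPM with VPA, against 2.80 and 3.65 TPM with water. Its groups were well apart, and it fell by 1.94 ± 0.27 on the log2 scale (edgeR adjusted p = 0.035). Leaving out any single library of the 4 left 1 library in a group. That call was then lost, as were most calls over all tested genes. The log2 fold change of *jag1* stayed between -2.05 and -1.81.

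The other members called with TSA did not pass with VPA. *dll1* had 8.29 and 1.33 TPM in AC with VPA, against 58.2 and 49.4 TPM with water (log2 fold change -3.71 ± 0.89, edgeR adjusted p = 0.093). *dlc* had 7.12 and 2.33 TPM with VPA, against 35.3 and 17.6 TPM with water (log2 fold change -2.72 ± 0.85, edgeR adjusted p = 0.17). For both, the 2 VPA libraries differed several-fold from each other and yet lay below both water libraries. *jag2* had 3.11 and 1.91 TPM with VPA, against 0.36 and 0.58 TPM with water (log2 fold change 2.23 ± 0.50, edgeR adjusted p = 0.079). *hes7.1* had 187 and 268 TPM with VPA, against 31.8 and 45.0 TPM with water (log2 fold change 2.39 ± 0.50, edgeR adjusted p = 0.067). *hes7.2* had 13.7 and 3.52 TPM with VPA, against 45.7 and 22.6 TPM with water (log2 fold change -2.22 ± 0.62, edgeR adjusted p = 0.13). All 6 members called with TSA thus had fold changes of the same sign with VPA, with groups that did not overlap. With 2 libraries a group this is common, as the groups of 45.9% of all tested genes and of 17 of 28 tested members did not overlap with VPA in AC. Further members close to a call were *hes4*, at 172 and 76.6 TPM with VPA, against 356 and 281 TPM with water (log2 fold change -1.57 ± 0.37, edgeR adjusted p = 0.089), and *hey1*, at 49.1 and 25.6 TPM against 14.0 and 16.9 TPM (log2 fold change 1.08 ± 0.29, edgeR adjusted p = 0.12). *hey2* was listed at 0 counts in both water libraries of AC and had 75 and 4 counts with VPA, which is at least 19.8-fold higher against a floor of 3 counts over the group. Of those counts, 75 came from replicate 1.

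In VG, no member was called with either inhibitor by the main edgeR fit. That fit called almost no gene at all in VG, so the absence of calls says little about the members. The paper, with edgeR and the same thresholds, reports many genes affected by the inhibitors in VG, which this fit did not recover. With TSA, 0 of 29 were called where 0.0131% of all tested genes were (2 of 15232). Unadjusted p was under 0.05 for 7 members and for 629 of all tested genes. DESeq2 called 4 members (*hes5.7* and *hes7.1* higher, *hes6.1* and *dlc1* lower), and 89 genes higher and 113 lower over all. With same-numbered libraries of a tissue treated as pairs, edgeR called 6 members higher and 1 lower. These were *dlc*, *hes2*, *hes5.7*, *hes5.8*, *hes5.9* and *hes7.1* (higher) and *hes6.1* (lower). Over all genes that fit called 127 higher and 136 lower. The replicate numbers were not taken as pairing here. With VPA, 0 of 28 were called and 0% of all tested genes. Unadjusted p was under 0.05 for 4 members and for 1340 of all 15166 tested genes. DESeq2 called 1 member, and 176 genes higher and 183 lower over all. The ligand genes called in AC had *dll1* at 27.7 and 9.35 TPM in VG with TSA, against 27.4 and 13.3 TPM with DMSO (log2 fold change -0.17 ± 0.53, edgeR adjusted p = 1). *dlc* had 15.9 and 6.13 TPM with TSA, against 5.55 and 2.92 TPM with DMSO (log2 fold change 1.35 ± 0.67, edgeR adjusted p = 1). *jag1* had 1.31 and 1.3 TPM with TSA, against 1.37 and 1.52 TPM with DMSO (log2 fold change -0.17 ± 0.29, edgeR adjusted p = 1). Of the 6 members called in AC, *hes7.1*, *jag2* and *jag1* had VG groups that did not overlap under either inhibitor. Over all tested genes, the VG groups of 21.7% with TSA and of 36.9% with VPA did not overlap, and over the tested members those of 15 of 29 and 11 of 28. *hes7.1* lay at 72.6 and 92.9 TPM with TSA against 27.3 and 42.6 TPM with DMSO, and at 68.7 and 93.5 TPM with VPA against 9.76 and 31.5 TPM with water. It was not called in VG (log2 fold change 1.22 ± 0.28, edgeR adjusted p = 0.33 with TSA, and 1.87 ± 0.49, edgeR adjusted p = 0.28 with VPA).

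Whether an inhibitor acted differently on AC and VG was tested directly as a difference of the 2 fold changes. No member passed for TSA, where 0.0853% of all tested genes did, and none for VPA, where 0.00659% did. At an unadjusted p under 0.05 there were 8 members for TSA and 4 for VPA, and 793 of 15232 and 737 of 15166 tested genes. DESeq2 called 5 and 1 members. Over all genes it called 130 higher and 95 lower of 14050 for TSA, and 75 and 48 of 12225 for VPA. With same-numbered libraries of a tissue treated as pairs, edgeR called 5 members higher and 5 lower for TSA. Over all genes that fit called 602 higher and 544 lower for TSA, and 2 and 1 for VPA. The largest differences among the members called in AC with TSA were those of *dlc*, -5.39 ± 0.98 (edgeR adjusted p = 0.21), and *dll1*, -4.25 ± 0.79 (edgeR adjusted p = 0.21). For *jag1* the difference was -1.89 ± 0.40 (edgeR adjusted p = 0.28), and for *hes7.2* -2.03 ± 0.55 (edgeR adjusted p = 0.48). The 5 members that DESeq2 called for TSA were *dlc*, *dll1*, *jag1* and *hes7.2*, with the larger fall in AC, and *hes7.1*, with the larger rise in AC, so that the call for these genes depended on the method.

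**Figure D2:**
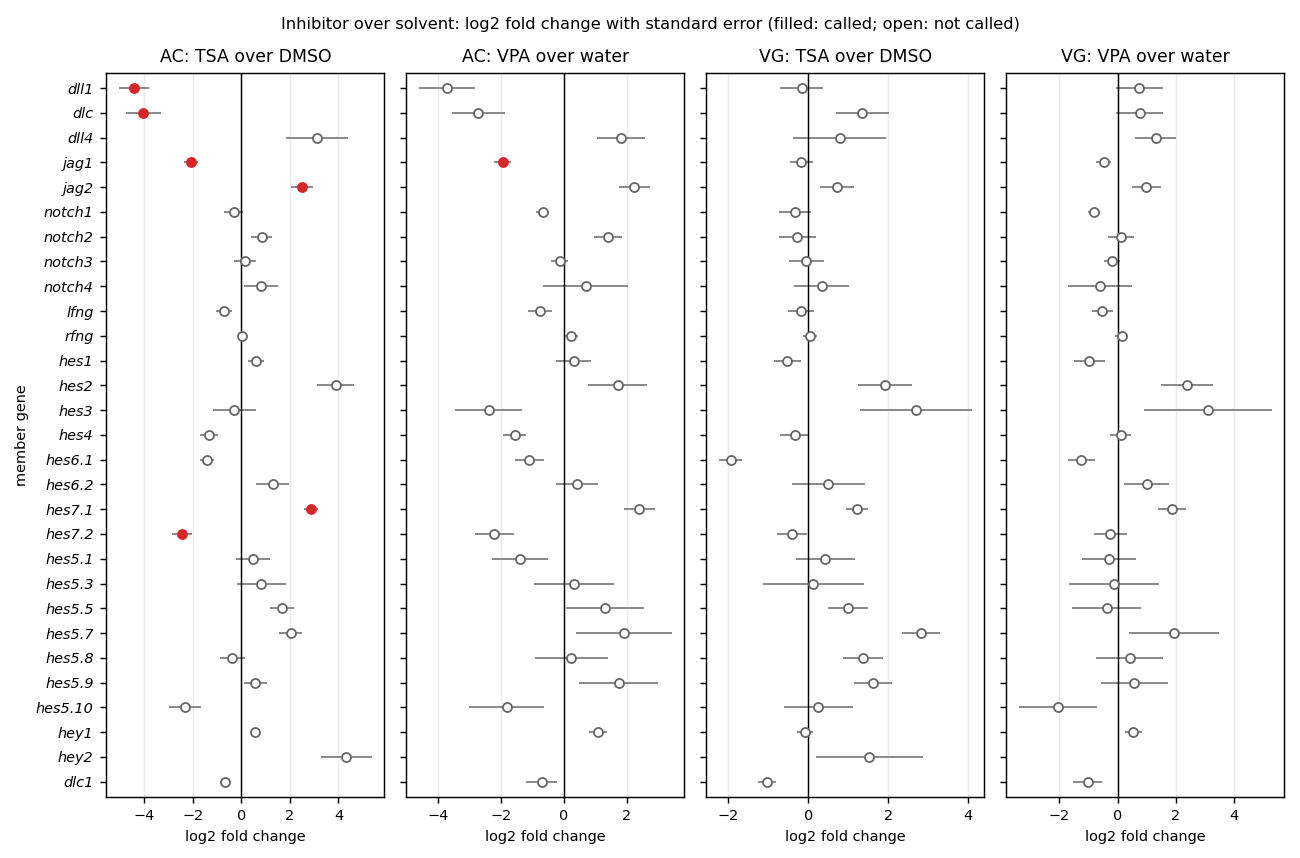
Log2 fold change of inhibitor over solvent (x axis, standard error as bars) for each tested member (y axis), in AC with TSA and VPA and in VG with TSA and VPA. Filled red points are called and open points not called. The AC panels hold 6 called members with TSA and 1 with VPA, the VG panels hold 0.

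The *hes5* genes, which include Notch-responsive repressor genes of *Xenopus*, were not called with either inhibitor by the edgeR fit without pairs. With TSA, DESeq2 called *hes5.5* and *hes5.7* higher and *hes5.10* lower in AC, and *hes5.7* higher in VG. So did edgeR with same-numbered libraries of a tissue treated as pairs, which also called *hes5.8* and *hes5.9* higher in VG. The replicate numbers were not taken as pairing here. Over all genes, the fit with pairs called 1051 higher and 623 lower in AC, and 127 and 136 in VG. DESeq2 called 522 and 429 in AC, and 89 and 113 in VG. Of the *hes5* genes, 7 lie side by side on chromosome 7 at 99488395 to 99572713 (v10.0), and *hes5.1* and *hes5.2* lie elsewhere on the chromosome, at 90003096 to 90024929. In VG, *hes5.7* had 32.0 and 18.4 TPM with TSA, against 4.03 and 2.95 TPM with DMSO (log2 fold change 2.83 ± 0.47, edgeR adjusted p = 0.18). *hes5.9* had 77.7 and 75.7 TPM with TSA, against 31.2 and 17.8 TPM with DMSO (log2 fold change 1.61 ± 0.48, edgeR adjusted p = 0.60). *hes5.8* had 68.1 and 59.5 TPM with TSA, against 34.1 and 13.9 TPM with DMSO (log2 fold change 1.37 ± 0.51, edgeR adjusted p = 0.98). TSA libraries were higher than DMSO libraries without overlap for these genes. All 7 tested *hes5* genes had a log2 fold change above 0 in VG with TSA (median 0.99, against -0.0087 over all tested genes). For some the sign says little, as VG with TSA had 0 and 5 counts of *hes5.3*, against 3 and 2 with DMSO. *hes5.10* had 5 and 6 counts there, against 3 and 7, and *hes5.1* 12 and 14, against 8 and 13. Neighbors in the cluster are also not independent observations. With VPA in VG, 3 of the 7 were above 0 (median -0.12). *hes2*, which lies apart from the cluster on the same chromosome, had 70.0 and 74.4 TPM in VG with TSA, against 16.5 and 21.0 TPM with DMSO (log2 fold change 1.92 ± 0.68, edgeR adjusted p = 0.90). In AC with TSA, *hes5.7* had 11.1 and 5.77 TPM, against 2.29 and 1.48 TPM with DMSO (log2 fold change 2.03 ± 0.46, edgeR adjusted p = 0.086). *hes5.10* went the other way there, with 9.46 and 2.19 TPM against 36.3 and 17.3 TPM (log2 fold change -2.30 ± 0.65, edgeR adjusted p = 0.15).

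With VPA the 2 AC libraries disagreed at the cluster. *hes5.7* had 31.9 TPM in replicate 1 and 0.71 TPM in replicate 2 with VPA, against 6.00 and 1.3 TPM with water. *hes5.9* had 25.4 and 2.05 TPM with VPA, against 4.49 and 2.5 TPM with water, and *hes5.8* had 44.1 and 2.41 TPM against 23.0 and 10.6 TPM. Replicate 1 with VPA was above both water libraries for these genes, and replicate 2 below both. The same 2 libraries also differed in the summed mesoderm markers, which ranged over 58.9 to 195 TPM with VPA, against 11.6 to 17.97 TPM with water, and in the summed endoderm markers, which ranged over 156 to 344 TPM with VPA, against 56.4 to 82.5 TPM with water. The part of these markers in the *hes5* values was not tested.

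**Figure D3:**
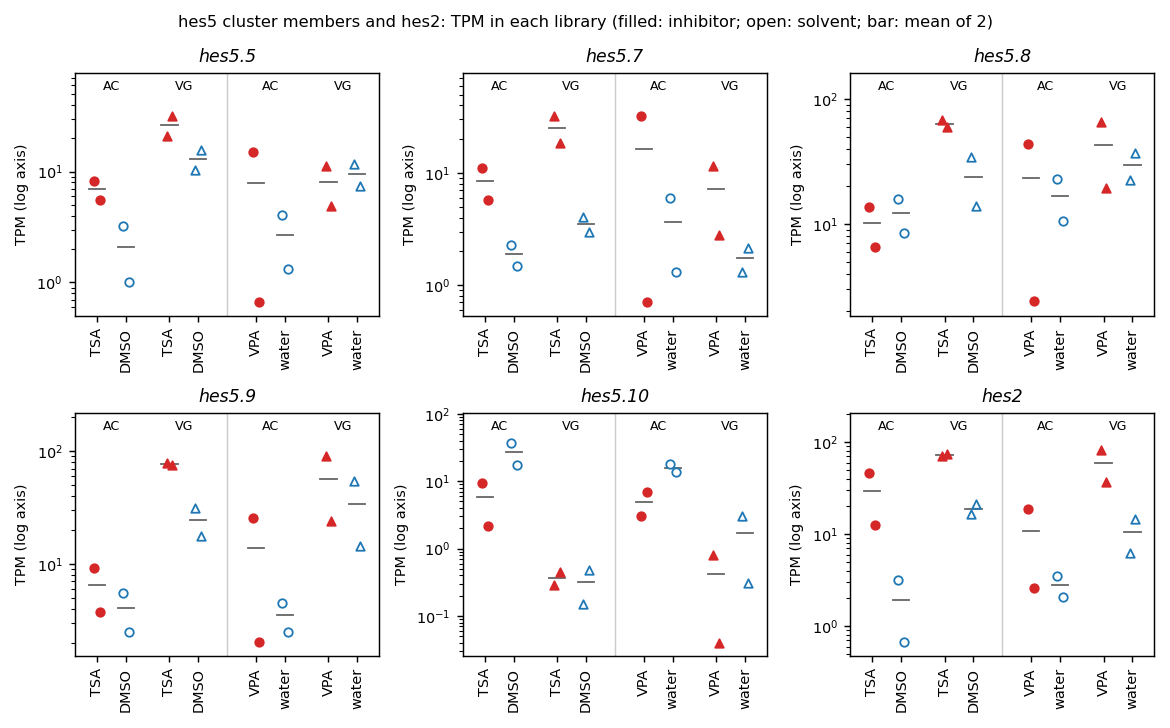
TPM (log axis) of 5 *hes5* genes of the chromosome 7 cluster and of *hes2* in each of the 16 libraries. Circles are AC and triangles VG, filled red symbols are inhibitor and open blue symbols solvent, and bars are means of 2 libraries. The 2 VPA libraries of AC lie on opposite sides of the water libraries for *hes5.5*, *hes5.7*, *hes5.8* and *hes5.9*.

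Marker levels moved along with the ligands in AC. The summed level of the 8 ectoderm markers was 871 to 1742 TPM with TSA, against 2409 to 3863 TPM with DMSO, and 1785 to 1868 TPM with VPA, against 3189 to 3664 TPM with water. The 10 endoderm markers summed to 269 to 536 TPM with TSA, against 124 to 126 TPM with DMSO, and the 7 mesoderm markers to 138 to 192 TPM, against 21.1 to 31.3 TPM. In AC with TSA, 4 of 8 ectoderm markers were called lower, 2 of 10 endoderm markers higher, and of the 7 mesoderm markers 1 higher and 1 lower. Of all tested genes, 1.00% were called lower and 1.29% higher. With VPA, 3 ectoderm markers were called lower, and 1 endoderm and 1 mesoderm marker higher, where 0.745% of all tested genes were called lower and 1.36% higher. Their part in the changes of the Notch genes was not tested.

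The next comparison set AC against VG in the solvent controls, to ask where each member is expressed. With DMSO, 9 members were called higher in AC (*dlc*, *jag1*, *lfng*, *hes3*, *hes5.1*, *hes5.10*, *hes6.1*, *hes6.2* and *dlc1*) and 5 lower (*hes1*, *hes2*, *hes5.5*, *hes5.9* and *hes7.2*), of 29 tested, where 9.67% of all tested genes were called higher and 12.1% lower. With water, 4 members were higher (*jag1*, *hes3*, *hes4* and *hes6.2*) and 2 lower (*hes1* and *hes7.2*), of 28 tested, where 6.05% and 8.89% of all tested genes were.

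Among ligands, *jag1* had 12.2 and 8.14 TPM in AC with DMSO, against 1.37 and 1.52 TPM in VG (log2 fold change 3.02 ± 0.30, edgeR adjusted p = 0.00088). With water it had 2.80 and 3.65 TPM in AC, against 0.83 and 1.02 TPM in VG (log2 fold change 1.87 ± 0.27, edgeR adjusted p = 0.0045). It was thus AC-enriched in both experiments, at different levels. *dlc* had 61.6 and 22.7 TPM in AC with DMSO, against 5.55 and 2.92 TPM in VG (log2 fold change 3.5 ± 0.71, edgeR adjusted p = 0.013). With water the groups were 35.3 and 17.6 TPM in AC, against 7.47 and 2.94 TPM in VG, and did not overlap, but *dlc* was not called (log2 fold change 2.42 ± 0.84, edgeR adjusted p = 0.089). *dll1* was not called in either (edgeR adjusted p = 0.074 with DMSO and 0.20 with water), though both AC libraries were above both VG libraries each time. *lfng*, a fringe gene whose enzyme adds sugars to Notch and alters which ligand it answers to, had 122 and 119 TPM in AC with DMSO, against 35.3 and 38.7 TPM in VG (log2 fold change 2.04 ± 0.34, edgeR adjusted p = 0.0063). With water it had 127 and 88.0 TPM in AC, against 33.7 and 64.2 TPM in VG (log2 fold change 1.24 ± 0.38, edgeR adjusted p = 0.060). The 4 receptor genes and *rfng* were called in neither control by the edgeR fit per experiment. DESeq2, and edgeR fitted on all 16 libraries, called *notch2* higher in AC with DMSO and *notch4* lower in AC with water.

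The *hes* genes divided by tissue. *hes7.2* had 40.2 and 19.2 TPM in AC with DMSO, against 196 and 287 TPM in VG (log2 fold change -2.67 ± 0.40, edgeR adjusted p = 0.0045). It was also lower in AC with water, at 45.7 and 22.6 TPM in AC, against 176 and 171 TPM in VG (log2 fold change -2.25 ± 0.60, edgeR adjusted p = 0.039). *hes1* had 23.4 and 10.9 TPM in AC with DMSO, against 76.6 and 117 TPM in VG (log2 fold change -2.21 ± 0.35, edgeR adjusted p = 0.0054). With water *hes1* had 25.5 and 21.8 TPM in AC, against 75.7 and 139 TPM in VG (log2 fold change -2.09 ± 0.56, edgeR adjusted p = 0.041). Both genes were therefore VG-enriched in both experiments. *hes7.1*, in contrast, was not called in either, with 35.1 and 22.6 TPM in AC with DMSO, against 27.3 and 42.6 TPM in VG. On the AC side, *hes4* had 356 and 281 TPM in AC with water, against 69.9 and 83.7 TPM in VG (log2 fold change 2.14 ± 0.38, edgeR adjusted p = 0.0096). With DMSO the values were 409 and 180 TPM in AC, against 163 and 166 TPM in VG (log2 fold change 1.13 ± 0.37, edgeR adjusted p = 0.064). *hes6.1* had 50.8 and 45.1 TPM in AC with DMSO, against 18.6 and 19.7 TPM in VG (log2 fold change 1.61 ± 0.28, edgeR adjusted p = 0.0076). With water its groups overlapped.

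Several AC-enriched *hes* genes were close to zero in VG with DMSO. *hes5.10* had 36.3 and 17.3 TPM in AC with DMSO, against 0.15 and 0.48 TPM in VG (log2 fold change 6.66 ± 0.84, edgeR adjusted p = 0.0022), while *hes5.9*, its nearest member in the cluster, had 5.56 and 2.51 TPM in AC, against 31.2 and 17.8 TPM in VG (log2 fold change -2.34 ± 0.50, edgeR adjusted p = 0.016). Genes of the same cluster were thus enriched in opposite tissues with DMSO. With water neither was called, though the groups lay in the same order without overlap. There *hes5.10* had 17.8 and 13.6 TPM in AC, against 3.06 and 0.31 TPM in VG. *hes5.9* had 4.49 and 2.5 TPM in AC, against 54.1 and 14.4 TPM in VG. The DMSO call of *hes5.9* was lost when all 16 libraries were fitted together (edgeR adjusted p = 0.106). *hes3* had 129 counts in AC with DMSO, against 1 count in VG, a ratio of 89.6 (95% exact interval of 15.8 to 3570, counting error only, edgeR adjusted p = 0.013). With water it had 47 counts in AC and 0 in VG, at least 16.7-fold higher against a floor of 3 counts over the group (edgeR adjusted p = 0.032). *hes6.2* had 49 counts in AC with DMSO, against 3 in VG, a ratio of 11.3 (95% exact interval of 3.66 to 56.9, edgeR adjusted p = 0.027), and with water 4.68 and 4.34 TPM in AC, against 0.39 and 0.45 TPM in VG (log2 fold change 3.46 ± 0.77, edgeR adjusted p = 0.022). The remaining called members were *hes2*, at 3.15 and 0.67 TPM in AC with DMSO against 16.5 and 21.0 TPM in VG, *hes5.5*, at 3.20 and 1.02 TPM against 10.3 and 15.8 TPM, and *hes5.1*, at 6.95 and 1.67 TPM against 0.61 and 1.03 TPM. *dlc1* had 54.0 and 57.0 TPM in AC, against 25.4 and 24.1 TPM in VG.

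Leaving out a library, which left 1 library in a group, lowered these counts, and it lowered the calls over all tested genes too. *jag1* and *hes7.2* were among the members called in both controls. Over all alternative fits, the log2 fold change of *jag1* ranged from 2.165 to 3.163 with DMSO and from 1.129 to 1.982 with water. That of *hes7.2* ranged from -3.097 to -2.045 with DMSO and from -2.938 to -1.788 with water. The AC libraries with DMSO also serve in the comparison with TSA, and those with water in that with VPA, so that an AC-enriched gene and a gene lower with an inhibitor are not independent observations.

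**Figure D4:**
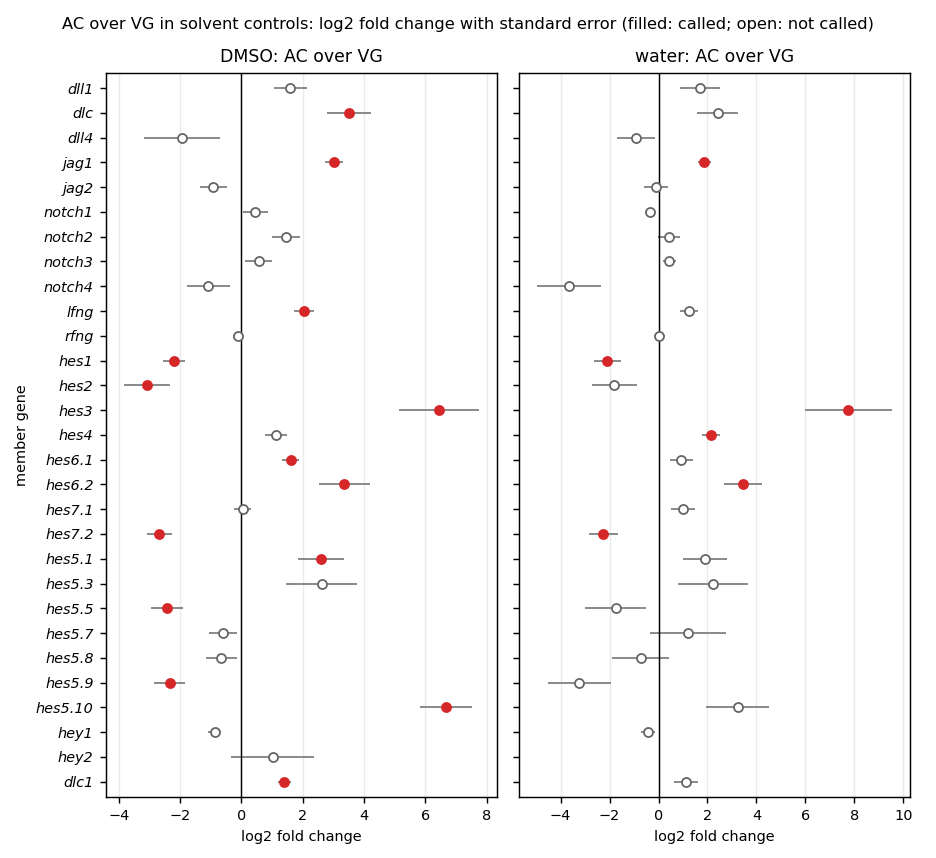
Log2 fold change of AC over VG (x axis, standard error as bars) for each tested member (y axis) with DMSO and with water. Filled red points are called (14 with DMSO and 6 with water) and open points not called. *hes3* was listed at 1 count in VG with DMSO and at 0 with water, so that its fitted value depends on the method.

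The rest of the pathway was followed in 35 further genes for its proteases, ubiquitin ligases, inhibitors and nuclear partners, of which 30 were tested in the first experiment and 29 in the second. None was called with either inhibitor in either tissue. In AC, 1.29% of all tested genes were called higher and 1.00% lower with TSA, and 1.36% and 0.745% with VPA. In VG, 2 of 15232 tested genes were called with TSA and 0 of 15166 with VPA, so the absence of calls there says little about these genes. *numbl*, picked after its values were seen, had 34.5 and 23.2 TPM in AC with TSA, against 13.7 and 7.26 TPM with DMSO. In VG it had 5.61 and 6.63 TPM, against 1.7 and 1.94 TPM. With VPA it also lay above water in both tissues without overlap, and the paper lists it as raised in VG. Others fell without overlap, such as *mib1* in AC and *dtx1* in VG. At an unadjusted p under 0.05 there were 2 with TSA in AC and 2 in VG, and 7 with VPA in AC and 4 in VG. Over all tested genes there were 1987 and 629 of 15232 with TSA, and 2425 and 1340 of 15166 with VPA. *mib1* with VPA in AC passed the adjusted p but not the fold of 2 (log2 fold change -0.88 ± 0.15, edgeR adjusted p = 0.041). The median log2 fold change with TSA in AC was -0.06. Between the tissues with DMSO, 6 were called higher in AC and 2 lower, of 30 tested, where 9.67% of all tested genes were called higher and 12.1% lower. *nrarp*, which encodes a feedback inhibitor of Notch, had 338 and 321 TPM in AC, against 110 and 114 TPM in VG (log2 fold change 1.96 ± 0.17, edgeR adjusted p = 0.00056). *mib1*, whose ligase activates the ligands, had 50.4 and 40.2 TPM in AC, against 11.2 and 15.7 TPM in VG. *psen2*, a catalytic subunit of gamma-secretase, was called lower in AC, at 14.0 and 10.2 TPM, against 45.1 and 54.6 TPM in VG. *rbpj*, *numbl*, *neurl1* and *tle1* were the other genes called higher and *dtx1* the other called lower. With water, *numbl*, *mib1* and *nrarp* were called higher and *psen2* and *dtx1* lower, of 29 tested, where 6.05% and 8.89% of all tested genes were.

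Proneural and early neuronal genes, which encode activators of Delta expression or mark the cells that Delta singles out, were followed as a list of 16. With TSA in AC, 5 of 14 tested were called lower and 1 higher (median log2 fold change -2.57), where 1.00% of all tested genes were called lower and 1.29% higher. *atoh1* had 0.20 and 0.33 TPM with TSA, against 16.4 and 5.85 TPM with DMSO (log2 fold change -5.32 ± 0.68, edgeR adjusted p = 0.018). *neurog2*, *insm1* and *elavl3* also fell, and *ebf2* rose, at 18.5 and 10.8 TPM with TSA, against 0.13 and 0.38 TPM with DMSO (log2 fold change 5.53 ± 0.87, edgeR adjusted p = 0.029). With VPA in AC, 2 of 14 were called higher (*ebf2* and *tubb2b*) and 1 lower (median log2 fold change -0.84, 4 of 14 above 0). Over all tested genes, 1.36% were called higher and 0.745% lower. In VG, 0 of 14 were called with either inhibitor, where 2 of 15232 tested genes were with TSA and 0 of 15166 with VPA. Unadjusted p was under 0.05 for 6 with TSA and 4 with VPA, and for 629 and 1340 of all tested genes.

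Hdac1 binding near the members was read from the deposited peaks, counting peaks that overlap a gene span widened by 10 kb on each side. Hdac1 is a Class I histone deacetylase. Its peaks lay near 4 of 31 members (st8), 20 (st9) and 30 (st10.5), where 4.84%, 14.1% and 49.3% of all 26458 genes with a position had them. Among genes that passed the expression filter the shares were 6.79%, 20.5% and 70.5%. Within the gene span alone, Hdac1 peaks lay in 13 members at st9, and the share of all genes was not counted for that window. Members have a shorter median span (3.81 kb) than all genes (12.2 kb). Since *hes5* genes of the cluster share peaks, the 31 members stand for 24 separate loci.

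The members with Hdac1 peaks at st8 were *dll1*, *lfng*, *hes7.1* and *hes7.2*. *dll1*, on chromosome 5 at 50487708 to 50496010, had 3, 5 and 4 peaks over the 3 stages, and its highest fold enrichment over input was 7.39, 15.8 and 16.04 at these stages. *lfng* had 2, 5 and 7 peaks. *jag1* had 0, 1 and 9 peaks, and *dlc* 0, 2 and 6. At *hes7.1* there were 1, 2 and 3 peaks and at *hes7.2* 1, 3 and 4. The 2 Jagged genes differed, as *jag2* had 0, 0 and 1 peak, with a fold enrichment of 5.07 at st10.5, against 12.4 for the highest peak of *jag1*. *hey2* had no Hdac1 peak in any of these 3 lists.

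The single-library lists found Hdac1 more widely. Peaks were near all 31 members with TSA and with DMSO, at st9 (63.1% of all genes with TSA and 64.3% with DMSO) and at st10.5 (71.2% with TSA and 69.8% with DMSO). The shares among genes that passed the expression filter were 83.4% with TSA and 85.2% with DMSO at st9, and 90.8% and 90.1% at st10.5. The numbers of peaks differed by member. At st10.5, *jag1* had 7 peaks with TSA, against 15 with DMSO, *notch1* had 24 against 30, and *dll1* had 7 against 4. The highest fold enrichment at *dll1* was 26.0 with TSA, against 30.9 with DMSO, and at *hes7.2* 29.3, against 38.3. Values were lower with TSA over the whole lists too, with a median of 4.87 at st10.5, against 5.17 with DMSO. With 1 library per treatment these values have no replicate check. The paper reports barely any differential Hdac1 signal with TSA. Hdac2, the second Class I enzyme, had peaks near 30 members at st9 (55.5% of all genes) and 31 at st10.5 (64.4%), with *jag2* lacking at st9. Sox3, a maternal transcription factor, had peaks near 24 members at st9 (33.7% of all genes), and the members without were *dll4*, *jag2*, *notch2*, *notch4*, *rfng*, *hey1* and *hey2*. Of genes that passed the expression filter, 75% at st9 and 86.1% at st10.5 had Hdac2 peaks and 45.6% had Sox3 peaks.

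**Figure D5:**
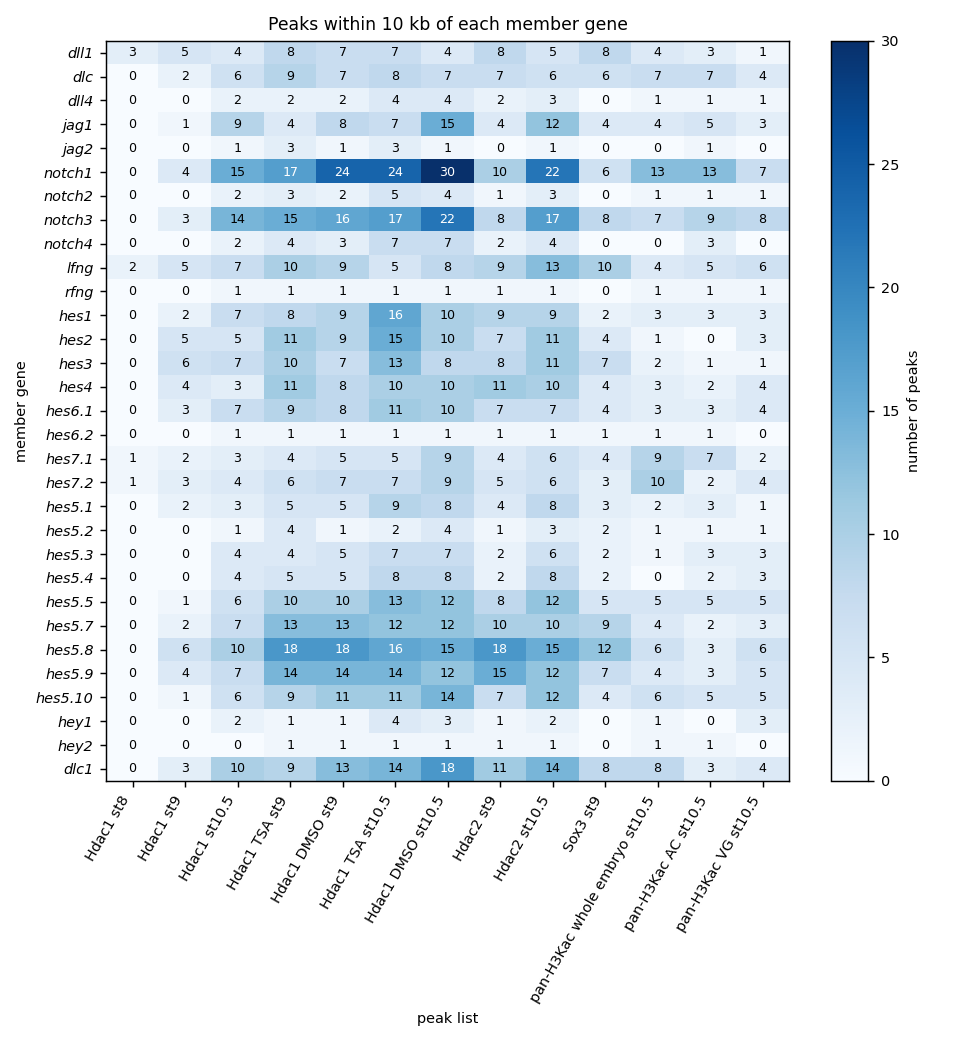
Number of peaks within 10 kb of each of the 31 members (rows) in the 13 peak lists (columns), printed in each cell and shaded from 0 to 30. Hdac1 peaks at st8 are near 4 members, and *notch1* with DMSO at st10.5 has the most (30). Neighboring *hes5* genes share peaks.

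Histone acetylation was present near most members. Pan-H3Kac peaks lay near 28 members in whole embryos (56.9% of all genes), 29 in AC (52.2%) and 27 in VG (50.2%). Among genes that passed the expression filter the shares were 80%, 74.4% and 70%. Within the gene span alone, peaks lay in 19 members in AC and 16 in VG, and the share of all genes was not counted for that window. Near 25 members they occurred in both explants, where 41.3% of all genes had both. *hes6.2*, *hey2*, *jag2* and *notch4* had peaks in AC only, and *hes2* and *hey1* in VG only, which is 4 and 2 of 31, where 10.9% and 8.87% of all genes were in these classes. Of the 9 members called higher in AC with DMSO, *hes6.2* was acetylated in AC only and 8 in both. Of the 5 called lower, *hes2* was acetylated in VG only and 4 in both. *dlc* had 7 peaks in AC, against 4 in VG, and *dll1* had 3, against 1. *hes7.2* had 2 peaks in AC, with a highest fold enrichment of 6.14, against 4 in VG, with 18.3. These lists hold no value per replicate, so that no difference between the tissues was tested.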

How the data were processed

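RNA-seq expected counts were estimated by the authors with RSEM 1.3.3 after alignment with STAR 2.7.3a to *X. tropicalis* v10.0, and the deposited TPM values came from the same program. ChIP-seq peaks were called by the authors with MACS2 2.7.1. The deposited peak value is a fold enrichment over input, except for Sox3, where the authors deposited a combined score of both replicates (its 10 further columns were not used). Hdac1 lists of untreated embryos and the Sox3 list passed the irreproducibility discovery rate filter, pan-H3Kac lists hold peaks of both replicates, and Hdac2 and treated Hdac1 lists come from 1 library each. Peak lists hold no reads, so their depth is unknown.

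Counts were rounded and fitted per experiment (8 libraries) in R 4.3.3 with edgeR 4.0.16 (TMM normalization, filterByExpr, a mean per group, two-sided quasi-likelihood F-test, Benjamini-Hochberg adjustment over all tested genes). Standard errors are the fold change divided by the root of F. A difference between tissues was called at an adjusted p under 0.05 alone. The fits were tested on simulated data. Alternatives used DESeq2 1.42.0, limma 3.58.1 on log2(TPM + 1), other filters, a minimum of 10 counts, other scalings, replicate blocks and each library left out. P-values set a fold change against the spread between libraries of a group. That spread was estimated from the 8 libraries of an experiment together, with 2 per group. Members called in a comparison are given by library. Other members were to be given by ranges and counts, and lists by counts, medians and called genes, so uncalled genes named with values were chosen after these were seen. The members and lists (pathway, proneural, multiciliated and tissue markers) were chosen with earlier results of these data known. Gene spans are those of RefSeq on the same assembly, without strand. Peaks were counted with Python 3.11.15. A gene of the proneural list is counted but not reported here by name.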

Additional observations from a re-analysis of the deposited data

How the results depend on the processing

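No called member changed sign under any alternative run, while each of the 8 counts of called members moved under at least 1 alternative. With 2 libraries per group these limits are wide. The count for TSA in AC was 6, and it was 12 with DESeq2 and 14 with a replicate block within tissue. Over all genes, that block called 1051 higher and 623 lower. Leaving out a single AC library, or both rich in ribosomal RNA (an alternative chosen after seeing the data), left 1 library in a group. Most calls were then lost, among the members and over all genes. For TSA in VG the count was 0, and it was 4 with DESeq2 and 7 with the block within tissue. Over all genes, DESeq2 called 89 higher and 113 lower and that block 127 and 136, against 0 and 2 in the main fit. For VPA in AC it was 1, and it was 5 with no filter, 8 with DESeq2, 5 with all 16 libraries and 2 with limma. It was 10 with a replicate block and 8 with the block within tissue. Over all genes, no filter gave 347 higher and 190 lower, all 16 libraries 308 and 149, and limma 362 and 112. The replicate block gave 669 and 327 and the block within tissue 545 and 278. With each library left out, calls were lost for the member and for most genes. For VPA in VG it was 0, and it was 1 with DESeq2 and 2 with a replicate block. Over all genes, DESeq2 called 176 higher and 183 lower and the replicate block 120 and 121. AC against VG with DMSO gave 14, and fewer with each library left out, as over all genes. Its calls with limma were 8 higher and 6 lower for members, and 1010 higher and 2300 lower over all genes, against 1473 and 1838 with edgeR, with a shift of the median of all genes of -0.23. AC against VG with water gave 6, and 10 with DESeq2, 12 with a replicate block and 1 to 3 with each library left out. The difference of the TSA effect gave 0, and 1 with no filter, 5 with DESeq2, 1 with a replicate block and 10 with the block within tissue. Over all genes, no filter gave 24 higher and 14 lower, and DESeq2 130 and 95. The replicate block gave 10 and 10, and the block within tissue 602 and 544. The difference of the VPA effect gave 0, and 1 with DESeq2 and 1 with a replicate block. Over all genes, DESeq2 called 75 higher and 48 lower and the replicate block 11 and 8. Over all genes, DESeq2 called 522 higher and 429 lower for TSA in AC, against 197 and 153 with edgeR, and 580 and 319 for VPA in AC, against 206 and 113. Without both AC libraries rich in ribosomal RNA, edgeR called 2 and 0 for TSA in AC. The cause of these changes was not tested.

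Same-numbered libraries deviated together within a tissue in the first experiment (correlation of 0.80 in AC and 0.78 in VG) but not across tissues (-0.10 to -0.05), and in all pairs of the second (0.46 to 0.63). With 2 pairs per comparison the numbers were not taken as pairing, so the main fit counts this shared deviation as spread between libraries. Fits that treat the numbers as pairs called more members in several comparisons, as given above.

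With the gene span alone, Hdac1 at st9 was near 13 members in place of 20, pan-H3Kac in AC near 19 in place of 29 and pan-H3Kac in VG near 16 in place of 27. The share of all genes was not counted for the gene span alone. The other peak counts stayed within 1.5 times the count given.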

Other observations

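Genes of multiciliated cells and ionocytes, cell types whose number in the *Xenopus* epidermis is set by Notch, were followed as a list of 9. In AC with TSA, 0 of 9 were called (4 at an unadjusted p under 0.05, median log2 fold change 0.44). Of all tested genes, 1.29% were called higher and 1.00% lower, and 1987 of 15232 had an unadjusted p under 0.05. With VPA 1 was called, *tekt2*, a gene of the ciliary axoneme, which rose (log2 fold change 2.62 ± 0.36, edgeR adjusted p = 0.036). There 1.36% of all tested genes were called higher and 0.745% lower. *foxj1*, which encodes a regulator of motile cilia, had 56.8 and 15.8 TPM in AC with TSA, against 35.8 and 43.3 TPM with DMSO, so that the groups overlapped. *gmnc*, which encodes a regulator of multiciliated cells, had 40.9 and 17.5 TPM with TSA, against 18.96 and 12.0 TPM with DMSO, and overlapped as well. The groups of *ccno* also overlapped. Without overlap, *foxi1* and *tp63* lay lower with TSA, and *tekt2*, *mcidas*, *myb* and *foxn4* higher. *foxi1* had 19.8 and 8.5 TPM, against 66.7 and 31.3 TPM with DMSO, and *tekt2* 6.43 and 5.4 TPM, against 1.28 and 0.5 TPM. Between the tissues with DMSO, 5 of the 9 were called higher in AC and *mcidas* lower, where 9.67% of all tested genes were called higher and 12.1% lower.

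*hes5.2*, which was not tested, had 5.38 and 1.01 TPM in AC with TSA, against 0.24 and 0.12 TPM with DMSO. *dtx1*, which encodes a ligase that binds Notch, was near zero in AC in every library and had 0.37 and 0.55 TPM in VG with TSA, against 3.56 and 4.54 TPM with DMSO, and 0.22 and 0.51 TPM with VPA, against 2.78 and 2.49 TPM with water. It was picked after its values were seen and was not called with either inhibitor.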
